A study of Mus musculus with 39 samples.

Results

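The 38 genes described here encode proteins that build ribosomes, most of them in the nucleolus. They were chosen by symbol from a list of ribosome biogenesis and nucleolar genes, and each was matched to its probes through the RefSeq accession given for the probe. The 38 genes were part of 18905 genes named on the array. All 38 reached the minimum intensity set for testing, as did 18603 of the 18905 genes, so no member was dropped. They fall into 3 box H/ACA snoRNP proteins, 3 box C/D snoRNP proteins, 3 abundant nucleolar proteins, 14 proteins of the small subunit processome, 4 late-acting factors of the 40S subunit and 11 factors of the 60S subunit.

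Ribosomes are assembled on a long precursor RNA that RNA polymerase I transcribes in the nucleolus. Small nucleolar ribonucleoproteins (snoRNPs) guide chemical modification of that RNA, of which box C/D particles place methyl groups and box H/ACA particles make pseudouridine, while separate sets of factors fold, cut and export the small and the large subunit. Fully grown mouse oocytes and early embryos have compact, atypical nucleoli, and synthesis of ribosomal RNA is known to resume as the embryonic genome is activated around the 2-cell stage.

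RNA was hybridized to 39 single-colour Agilent whole mouse genome arrays, and all groups carry the strain label (B6xDBA/2)F1. Unfertilized metaphase II oocytes (OC, 7 arrays) were compared with 2-cell embryos from in vitro fertilization (IVF, 6 arrays), with 2-cell embryos made by somatic cell nuclear transfer from cumulus cells and left without trichostatin A (TSA(-), 8 arrays), and with such clones given 5 nM trichostatin A, an inhibitor of histone deacetylases, for 8 h from activation (TSA(+), 6 arrays). Further clones were injected at the pronuclear stage with mRNA for the ETS family transcription factor Spi-C at 1.0 mg/ml (Spi-C 1.0, 4 arrays) or 0.1 mg/ml (Spi-C 0.1, 4 arrays), and the nuclear donor cumulus cells were measured on 4 arrays. Fertilized and cloned embryos were cultured for 24 h, and RNA from 10 pooled oocytes or embryos, or from 500 cumulus cells, went through 2 rounds of amplification, so a value belongs to a pool and not to a single embryo. All groups go back to females injected with hCG, from which oocytes and cumulus cells were collected 15 h later. The series text calls the repeats biological replicates.

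Levels are log2 intensities minus the 75th percentile of the same array, so 0 stands for the 75th percentile and each step of 1 for a doubling. A difference is the mean level of the first group minus that of the second, with its standard error (SE) from limma. A gene was called where limma's p, adjusted by Benjamini-Hochberg over 39517 probes, was under 0.01. Because levels are relative to the other transcripts of the pool, a change of a transcript and a change of the rest of the RNA cannot be told apart, nor can fewer cells of a kind and less RNA per cell. The 75th percentile of intensity had a median of 2572 on the Spi-C 0.1 arrays and 2395 on those of Spi-C 1.0, of 1451 in TSA(-) and 1372 in TSA(+), and of 1112 in IVF, 945 in Cumulus and 392 in OC. The median share of probes well above background was lowest in OC at 57.5% and reached 73.2% in IVF. Of the 38 members, 30 were well above background on every array and none was saturated on any array.

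Marker genes were checked first. All 8 oocyte markers were called lower in IVF than in OC and higher in IVF than in Cumulus, and 5 of them (Zp2, Bmp15, Oosp1, Mos and Nlrp5) were well above background on no Cumulus array. All 8 were also called lower in TSA(-) than in OC, and against IVF 1 was called lower in TSA(-) and 2 in TSA(+). Against TSA(-), 2 were called higher and 2 lower in Spi-C 1.0, and 2 higher and 3 lower in Spi-C 0.1. Their summed level had a median of 11.56 in OC, 9.25 in IVF and 0.34 in Cumulus, with Oosp1 the brightest in OC, and among the clones it was 9.10 without and 8.93 with trichostatin A. It was 8.65 in Spi-C 1.0 (8.54 to 8.79) and 8.57 in Spi-C 0.1 (8.49 to 8.72), below the TSA(-) range of 8.99 to 9.22. All 12 cumulus markers were well above background on every Cumulus array, with Vim the brightest, and their summed level had a median of 8.72 in Cumulus, 1.28 in OC, 0.94 in IVF, 0.43 and 0.23 in TSA(-) and TSA(+), 0.10 in Spi-C 1.0 and -0.28 in Spi-C 0.1. These sums cover markers that moved both ways, since against OC 2 were called higher and 5 lower in IVF, with differences from -4.35 to 4.61 (Vim), and 1 higher and 6 lower in TSA(-). Against IVF 1 was called lower in TSA(-) and 1 in TSA(+), against TSA(-) 0 were called in Spi-C 1.0 by limma and 1 was lower in Spi-C 0.1, and 10 were called lower in IVF than in Cumulus. Of 8 markers of the 2-cell stage, a list that includes Spic, 6 were matched, and all 6 were called higher in IVF than in OC while 5 were called lower in TSA(-) and 2 in TSA(+) than in IVF. Against TSA(-), 0 were called in Spi-C 1.0 by limma and 1 was lower in Spi-C 0.1. Their summed level had a median of 7.58 in IVF against 4.99 in OC, 6.24 in TSA(-), 6.33 in TSA(+), 5.50 in Spi-C 1.0 and 5.36 in Spi-C 0.1. For blood and immune cells, 3 of 5 markers were matched, and their summed level had a median of 5.78 in Cumulus, -0.07 in IVF and -3.96 in OC, with Lyz2 the brightest in Cumulus and IVF. Only Lyz2 was called in IVF against OC (6.48, with 1 of 7 OC arrays well above background), while Hba-a1 (1.39) and Ptprc (-0.97) were not, so the higher sum in IVF comes mostly from Lyz2. These levels moved with the groups, and their part in the results on ribosome biogenesis genes was not tested.

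The first comparison asked how the transcripts differed between oocytes and fertilized 2-cell embryos. More ribosome biogenesis genes were called higher than lower in the embryos, and 6 of the 12 called lower turned positive with quantile normalization. Of these 6, 4 were then called higher (Nop10, Mphosph10, Pes1 and Ebna1bp2). There were 34 called members in IVF against OC, where 71.9% of all genes tested were called. The calls split into 22 members that rose, where 27.4% of all genes rose, and 12 that fell, where 44.4% of all genes fell. Over the 38 members the median difference was 1.31 against -0.73 over all genes, and 27 members lay above the median of all genes. In 30 members the gene was called and the groups did not overlap, which held for 57.8% of all genes, and 36 members had an unadjusted p under 0.05, as did 80.1% of all genes.

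All 3 box C/D snoRNP proteins among the members (Fbl, Nop56 and Nop58) were called higher in IVF than in OC, while Snu13, the RNA-binding protein of the same core, fell by 2.16 (SE 0.16). Nop56, one of the paired scaffold proteins of that particle, ranged in OC from -2.42 to -0.65 with a median of -1.83, and in IVF from 5.61 to 5.98 with a median of 5.79. The lowest embryo pool lay far above the highest oocyte pool. The difference was 7.52 (SE 0.21, adjusted p = 1.05e-22, limma), a 183-fold change. Fbl encodes fibrillarin, the methyltransferase of the particle. Its level ran from 2.63 to 2.95 in OC (median 2.81) and from 4.05 to 4.36 in IVF (median 4.31), with no overlap, and rose by 1.48 (SE 0.16, adjusted p = 1.18e-09, limma). The partner of Nop56 in the scaffold, Nop58, rose by 3.25 (SE 0.20).

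The box H/ACA proteins did not move together. Nhp2, an RNA-binding core protein, rose by 5.63 (SE 0.41) and was well above background on 6 of 7 OC arrays. Gar1 and Nop10, which complete the core around the pseudouridine synthase, fell by 1.92 and by 0.70, and quantile normalization turned the direction of Nop10 to 0.89.

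The 3 abundant nucleolar proteins also went separate ways. Npm1 encodes nucleophosmin, a histone and ribosome chaperone of the outer nucleolus. Its level ran from 8.46 to 9.70 in OC (median 9.16) and from 5.51 to 6.26 in IVF (median 6.02). Every oocyte pool was higher than every embryo pool, and the level fell by 3.27 (SE 0.19, adjusted p = 1.64e-15, limma). Ncl, which encodes nucleolin, ran from 4.50 to 5.17 in OC (median 4.74) and from 4.96 to 5.28 in IVF (median 5.17), so the groups overlapped. Its difference of 0.37 (SE 0.14, adjusted p = 0.0240, limma) was not called, and centring on the array median turned it to -0.32. Of 3 other Ncl probes, all were called higher, by 0.45, 3.81 and 6.48, the latter 2 being well above background on 4 of 7 OC arrays. Nolc1, a chaperone of snoRNPs, rose by 1.72 with overlapping groups, and a second Nolc1 probe fell by 2.34.

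Of the 14 proteins of the small subunit processome, the large particle that first folds the precursor of the small subunit, 7 rose, 5 fell and 2 were not called. Utp6 (difference 5.49), Nop14 (4.67), Rrp9 (3.81), Heatr1 (3.12), Emg1 (1.28), Wdr43 (1.07) and Imp4 rose, and of these Utp6 was well above background on 6 of 7 and Nop14 on 5 of 7 OC arrays. A second Utp6 probe, well above background on all 7 OC arrays, fell by 3.84, and a second Wdr43 probe fell by 1.67, so the direction of these genes depends on the probe. Other probes of Nop14 (1.60) and Heatr1 (1.45 and -0.72) were not called. Utp20, a very large scaffold protein, fell from a range of 3.98 to 5.68 (median 5.52) to one of 1.84 to 2.66 (median 2.23). All OC pools were above all IVF pools, also OC replicate 2, which was the lowest oocyte pool. The difference was -3.08 (SE 0.21, adjusted p = 5.58e-14, limma). Utp15 fell by the representative probe, from a range of 1.63 to 2.55 (median 2.10) to one of -0.48 to 0.97 (median -0.08), without overlap. That difference was -2.11 (SE 0.24, adjusted p = 4.30e-09, limma), but a second Utp15 probe rose by 2.90, so the direction of Utp15 depends on the probe. Wdr75, Mphosph10 and Bms1 also fell, with differences of -2.08, -1.08 and -0.79, quantile normalization turned Mphosph10 to 0.85, and 2 other Mphosph10 probes were not called (0.32 and -0.50). The call of Imp4, which rose by 0.95, was lost without OC replicate 2 or without IVF replicate 3, with an adjusted p of up to 0.0135. Utp3 (-0.24) and Imp3 (-0.02) were not called.

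All 4 late factors of the small subunit rose. Ltv1, an assembly factor that leaves the particle late, rose by 4.61 (SE 0.55; well above background on 4 of 7 OC arrays), Nob1, the endonuclease that makes the final cut, by 1.91, and Tsr1 by 1.61. Rrp12 rose by 1.62 with overlapping groups and was well above background on 3 of 7 OC arrays. With normexp background correction Rrp12 was called lower instead, at -0.46.

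Of the 11 factors of the large subunit, 6 rose, 4 fell and Rrp1b (0.51) was not called, while 2 other Rrp1b probes were called in opposite directions (2.34 and -1.16). Nop2, a methyltransferase of ribosomal RNA, ran from -7.21 to -4.55 in OC (median -4.91), where 3 of 7 arrays were well above background, and from 3.1 to 3.94 in IVF (median 3.45). The groups were far apart, with a difference of 8.77 (SE 0.30, adjusted p = 1.18e-20, limma). Nop16 ran from -8.07 to -4.51 in OC (median -6.51), with 2 of 7 arrays well above background, and from 1.46 to 1.91 in IVF (median 1.69). No pool of one group reached the other, and the difference was 7.93 (SE 0.37, adjusted p = 9.60e-18, limma). Most OC values of Nop2 and Nop16 were not well above background, so the sizes of both differences and their order rest on values near background. The PeBoW complex, which is needed for processing of the large subunit RNA, was split. Wdr12, well above background on 5 of 7 OC arrays, and Bop1 rose by 4.90 and 3.71 while Pes1 fell by 1.11. The GTPases Gnl3 and Gnl2 rose by 1.46 and 1.34. A second Pes1 probe, not well above background on any OC array, was called higher, and quantile normalization turned the first Pes1 probe to 0.58. Nip7, Rrs1 and Ebna1bp2 fell, with differences of -1.96, -1.37 and -1.14, quantile normalization turned them to 0.32, 0.61 and 1.01, and a second Ebna1bp2 probe was not called (-0.33).

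Scaling set part of the balance between directions in this comparison. Over all tested probes the median difference was -0.87 with the 75th percentile, -1.55 after centring on the median, -0.29 after quantile normalization and -1.28 with normexp. With quantile normalization 28 of 33 called members were higher, against 22 of 34. The median over members stayed above 0 under each scaling, between 0.63 and 1.53. OC and IVF arrays shared 4 scan days, and within each day the median over members was between 1.05 and 1.31. Within a day 33 or 34 of the 34 called members had the same direction. For the 30 called without overlap this was fixed in advance, so the count is no check on scan day.

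Untreated clones were compared with the same OC arrays, so the values stand beside those of IVF and are not independent of them. Among the 38 members 33 were called, where 76.2% of all genes were called. The 22 members that rose compare with 26.8% of all genes, and the 11 that fell with 49.4%. Over members the median difference was 1.75, against -0.99 over all genes, and in 31 members the gene was called without overlap of the groups, as in 56.6% of all genes. At an unadjusted p under 0.05 there were 37 members, beside 83.9% of all genes. All 3 box C/D members and all 4 late factors of the small subunit rose, as did 1 of 3 box H/ACA members, 6 of 14 of the processome and 7 of 11 of the large subunit. The 5 members not called were Ncl, Utp3 (-0.45), Imp3 (-0.24), Bms1 (-0.51) and Imp4 (-0.74). With quantile normalization 28 of 33 called members were higher, and Wdr75, Pes1 and Ebna1bp2 were called in the opposite direction, while Nop10 and Rrs1 turned to 0.17 and 0.28. The median over all probes was -0.99, against -1.66 after centring on the median, -0.31 after quantile normalization and -1.48 with normexp. Over members it was 1.09 after centring on the median. Within the 4 shared scan days the median over members was between 1.34 and 1.91, and all 33 called members kept their direction. For the 31 called without overlap this was fixed in advance, so the count is no check on scan day.

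Nop2 ran from 2.82 to 3.96 in TSA(-) (median 3.13) and rose by 8.52 over OC (SE 0.28, adjusted p = 2.92e-21, limma). Nop16 ran from 1.65 to 2.32 (median 1.88) and rose by 8.14 (SE 0.34, adjusted p = 6.92e-19, limma). Nop56 ran from 6.14 to 6.56 (median 6.36) and rose by 8.08 (SE 0.19, adjusted p = 2.72e-24, limma). In none of the 3 did any clone pool come near the oocyte range, although the sizes for Nop2 and Nop16 rest on the same oocyte values near background. Fbl ran from 4.30 to 5.28 (median 4.65), again above all oocyte pools, and rose by 1.91 (SE 0.14, adjusted p = 7.94e-13, limma). Ncl ran from 4.89 to 5.62 (median 5.06) and overlapped the oocyte range. Its difference of 0.33 (SE 0.13, adjusted p = 0.0273, limma) was not called, and centring on the median turned it to -0.34.

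Npm1 ran from 5.36 to 6.20 in TSA(-) (median 5.68), below all oocyte pools, and fell by 3.52 (SE 0.18, adjusted p = 4.27e-17, limma). Utp20 ran from 1.89 to 2.63 (median 2.20) and fell by 3.11 (SE 0.19, adjusted p = 6.72e-15, limma), again without overlap. Nip7, a factor joining the large subunit precursor, ran from 6.85 to 8.10 in OC (median 7.48) and from 4.36 to 5.80 in TSA(-) (median 5.10). The groups were separate and the level fell by 2.49 (SE 0.19, adjusted p = 1.20e-12, limma), but the difference was -0.07 and not called after quantile normalization.

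**Figure D1:**
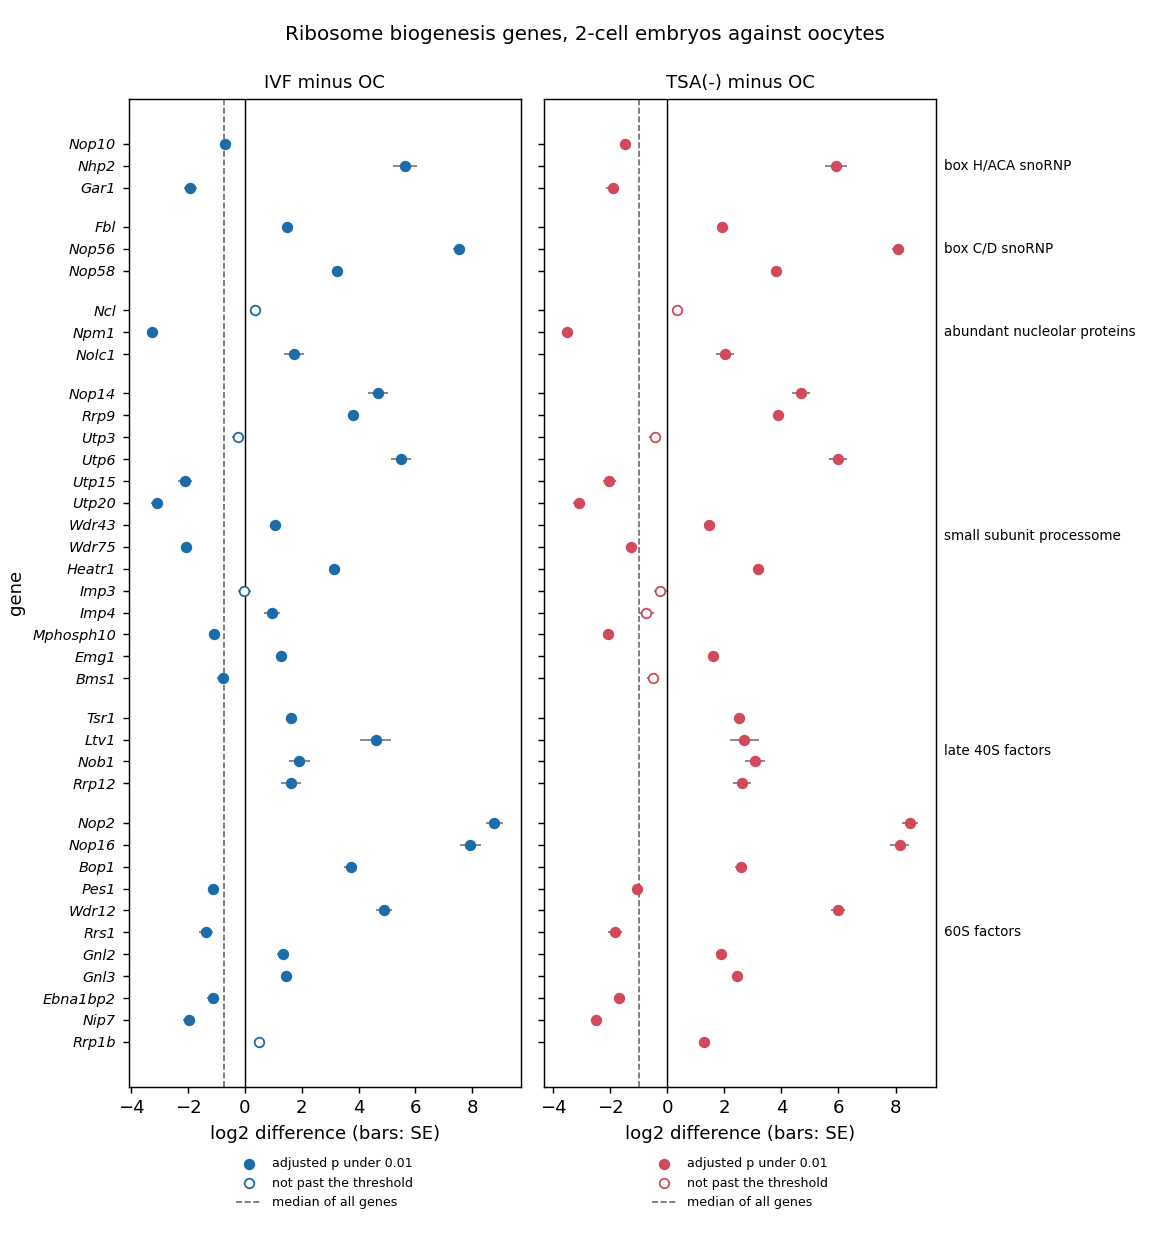
Each point is the log2 difference of 1 gene in IVF minus OC (left) or TSA(-) minus OC (right), with its SE as a bar, and genes are grouped by role on the vertical axis, where filled points passed an adjusted p of 0.01 and the dashed line is the median of all genes. Nop2, Nop16 and Nop56 lie at the far right and Npm1 at the far left of both panels, while quantile normalization turns Nop10, Pes1, Rrs1 and Ebna1bp2 to the right of 0 in both, Mphosph10 and Nip7 in the left panel and Wdr75 in the right panel, and normexp turns Rrp12 to the left of 0 in the left panel.

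The next comparison asked where cloned embryos differed from fertilized embryos of the same stage. In TSA(-) against IVF 10 of the 38 members were called, a share near that of all genes, 23.6%. The called members were 5 that rose, where 10.2% of all genes rose, and 5 that fell, where 13.4% of all genes fell. The differences had a median of 0.07 over members and -0.11 over all genes, and in 9 members the gene was called without overlap, as in 16.3% of all genes. The median over members was 0.16 after quantile normalization and 0.18 with the mean over probes. It was 0.11 with scan day as a term and -0.008 with replicate number as a block. There were 20 members with an unadjusted p under 0.05, beside 43.2% of all genes. After quantile normalization 16 members were called, 11 of them higher, and normexp gave 17 with 11 higher. Over all 39517 probes 7404 were called in the main fit, 7938 after quantile normalization and 10321 with normexp. The closeness of the member share to that of all genes is therefore given for the main scaling only. With normexp the median over all probes moved from -0.04 to -0.21. The 4 scan days that held both groups gave medians over members between 0.11 and 0.52. All 10 called members had the same direction within each day. For the 9 without overlap this was fixed in advance, so the count is no check on scan day.

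Members of the Imp3-Imp4-Mphosph10 subcomplex, which brings U3 snoRNA onto the precursor RNA, were among those that fell. Imp4 ran from -1.67 to -1.08 in IVF (median -1.38) and from -3.72 to -2.49 in TSA(-) (median -3.00). Every clone pool was below every IVF pool, and the level fell by 1.69 (SE 0.27, adjusted p = 1.69e-05, limma). Mphosph10 ran from 4.74 to 5.12 in IVF (median 4.97) and from 3.78 to 4.15 in TSA(-) (median 3.92), again without overlap, and fell by 0.99 (SE 0.15, adjusted p = 6.00e-06, limma). Of 2 further Mphosph10 probes, neither was called, with differences of -0.41 and -0.06. The third protein of the subcomplex, Imp3, had a difference of -0.22 and was not called.

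Ltv1 ran from 0.23 to 0.97 in IVF (median 0.51) and from -2.18 to -0.51 in TSA(-) (median -1.38). The groups did not overlap and the level fell by 1.91 (SE 0.53, adjusted p = 0.00688, limma). The call was narrow: it was lost without any 1 of the 6 IVF arrays or of TSA(-) replicates 1, 2, 3, 4 and 5, with an adjusted p of up to 0.0176. Bop1 and Nop10 fell as well, by 1.14 with overlapping groups and by 0.79 without overlap.

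Of the 5 members that rose in untreated clones, Wdr12, Gnl3 and Rrp1b act on the large subunit and Tsr1 and Wdr75 on the small one. Wdr12 ran from 0.33 to 1.15 in IVF (median 0.86) and from 1.42 to 2.26 in TSA(-) (median 1.92), without overlap. It rose by 1.08 (SE 0.27, adjusted p = 0.00301, limma), a call lost without IVF replicate 5 (adjusted p = 0.0112), and 2 other Wdr12 probes were not called (0.45 and -0.40). Gnl3 encodes nucleostemin, a nucleolar GTPase, and ran from 1.71 to 1.94 in IVF (median 1.82) and from 2.33 to 3.12 in TSA(-) (median 2.86). The groups were apart, and it rose by 0.98 (SE 0.15, adjusted p = 1.02e-05, limma). Tsr1, a GTPase-like factor of the small subunit, ran from 2.50 to 3.27 in IVF (median 2.93) and from 3.43 to 4.10 in TSA(-) (median 3.87). It too showed no overlap and rose by 0.91 (SE 0.17, adjusted p = 1.81e-04, limma). The other calls were Wdr75 (0.81) and Rrp1b (0.79), while 2 other Rrp1b probes were not called (-0.09 and 0.78).

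Fbl, Ncl and Npm1 were not called in TSA(-) against IVF, and their groups overlapped. The differences were 0.43 for Fbl (SE 0.15, adjusted p = 0.0308, limma), -0.04 for Ncl (SE 0.14, adjusted p = 0.893) and -0.24 for Npm1 (SE 0.18, adjusted p = 0.365). For Ncl, quantile normalization gave 0.12 and 1 of its other probes was called higher by 1.25.

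TSA(+) clones were set against the same IVF arrays, so the values again share their control. Here 13 of the 38 members were called, where 24.2% of all genes were called, with 10 that rose against 10.5% of all genes and 3 that fell against 13.8%. Members had a median difference of 0.21 and all genes one of -0.18. All 13 were free of overlap, as were the calls of 19.7% of all genes, and 19 members had an unadjusted p under 0.05, beside 46.3% of all genes. The median over all probes was -0.21, against -0.02 after centring on the median and 0.01 after quantile normalization. Over members it was 0.41 after centring on the median. Within the 3 shared scan days the median over members was between 0.24 and 0.43. All 13 called members kept their direction within each day. Since their groups did not overlap, this was fixed in advance and is no check on scan day.

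The 3 called members that fell were Ltv1, Imp4 and Mphosph10, which were also called lower in untreated clones. Ltv1 ran from -2.99 to -1.12 in TSA(+) (median -1.94) and fell by 2.58 (SE 0.57, adjusted p = 8.31e-04, limma). Imp4 ran from -4.67 to -2.29 (median -3.78) and fell by 2.28 (SE 0.28, adjusted p = 5.52e-07, limma). Mphosph10 ran from 3.83 to 4.11 (median 3.96) and fell by 0.96 (SE 0.16, adjusted p = 2.39e-05, limma). Each stayed below all IVF pools, while the 2 other Mphosph10 probes were again not called (-0.59 and -0.58).

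Wdr12 ran from 1.80 to 2.31 in TSA(+) (median 2.13) and rose by 1.29 (SE 0.29, adjusted p = 0.0011, limma), with its 2 other probes not called (0.75 and -0.08). Gnl3 ran from 2.75 to 3.27 (median 2.97) and rose by 1.15 (SE 0.16, adjusted p = 2.59e-06, limma). Wdr75, a subunit of the complex that also promotes transcription of the precursor RNA, ran from 2.76 to 3.22 in IVF (median 3.0) and from 3.89 to 4.34 in TSA(+) (median 4.14), and rose by 1.14 (SE 0.15, adjusted p = 1.49e-06, limma). All TSA(+) pools were above all IVF pools for the 3 genes. Rrp1b (1.04), Tsr1 (0.88) and Gnl2 (0.88) rose as well, while 2 other Rrp1b probes were not called (0.37 and 0.68).

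Among the box C/D proteins, Fbl ran from 4.79 to 5.10 in TSA(+) (median 4.92), above all IVF pools, and rose by 0.67 (SE 0.16, adjusted p = 0.00203, limma). Nop56 rose by 0.75, a call lost without any 1 of the 12 arrays (adjusted p of up to 0.0210). Wdr43 rose by 0.54 and Emg1 by 0.54, and a second Wdr43 probe was not called (-0.18). The call of Wdr43 was lost without any 1 of IVF replicates 1, 4, 5 and 6 or of the 6 TSA(+) arrays (up to 0.0204), and that of Emg1 without IVF replicate 1 or 6 or TSA(+) replicate 1 or 2 (up to 0.0146). Ncl ran from 4.74 to 5.48 in TSA(+) (median 5.12) and Npm1 from 5.91 to 6.39 (median 6.00), both overlapping IVF. Neither was called, with differences of -0.04 for Ncl (SE 0.15, adjusted p = 0.867, limma) and 0.13 for Npm1 (SE 0.20, adjusted p = 0.666). The sign of the Ncl difference turned to 0.11 after quantile normalization and to 0.15 after centring on the median.

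**Figure D2:**
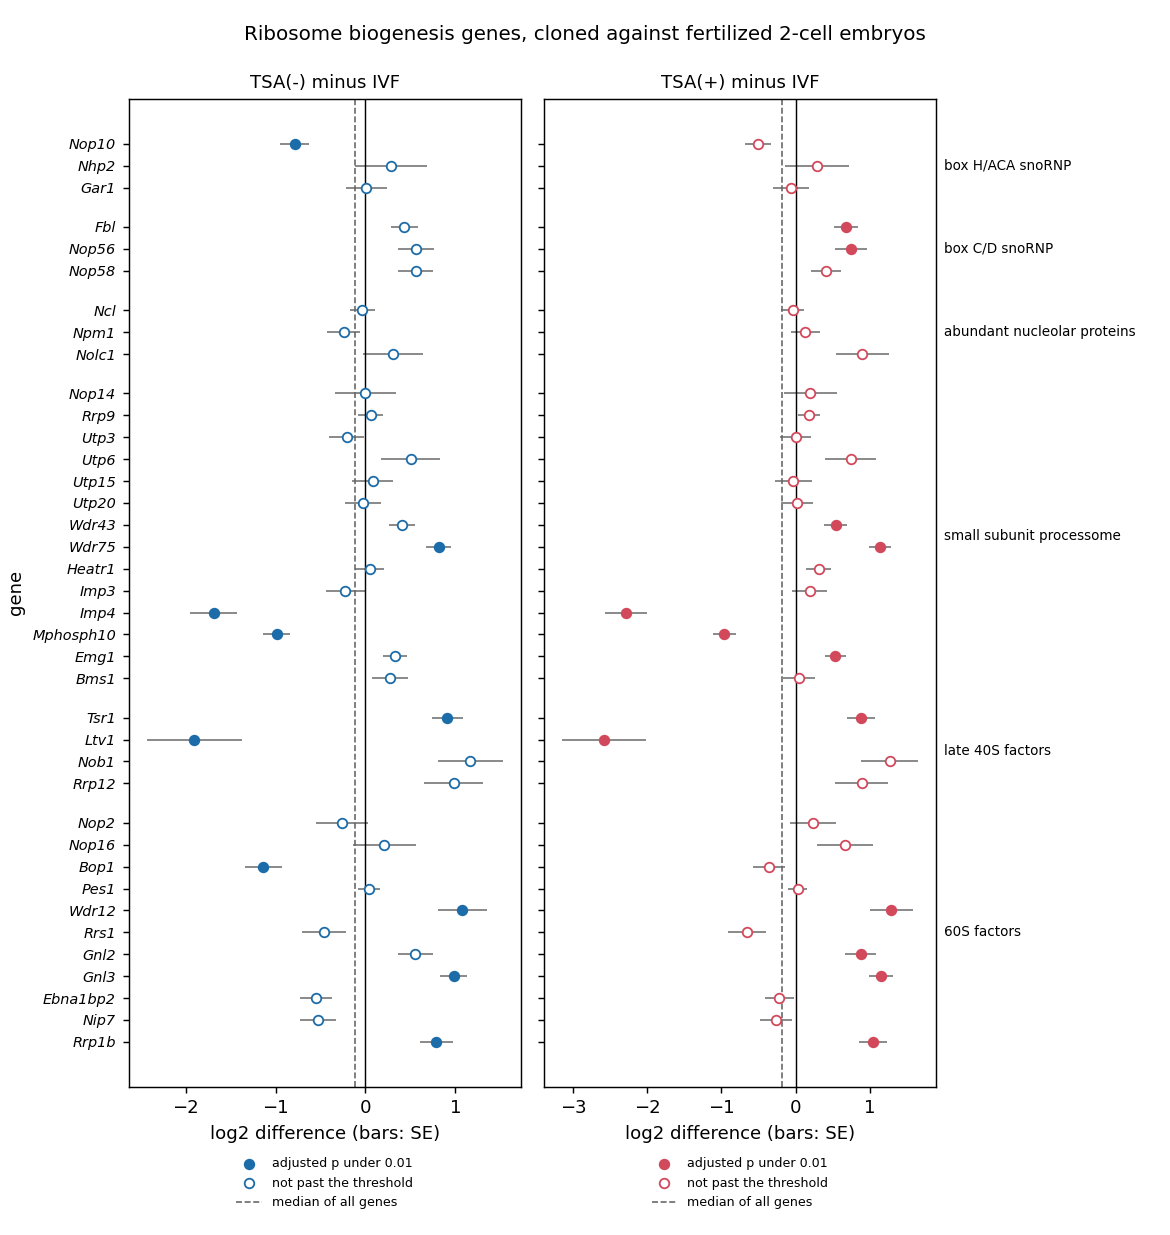
Each point is the log2 difference of 1 gene in TSA(-) minus IVF (left) or TSA(+) minus IVF (right), with its SE as a bar, and genes are grouped by role, filled points passed an adjusted p of 0.01 and the dashed line is the median of all genes. Ltv1 and Imp4 lie furthest to the left and Wdr12 furthest right among filled points in both panels, which share the same 6 IVF arrays.

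Treated and untreated clones were also compared directly. No member was called by limma in TSA(+) against TSA(-) (0 of 38), where 0.124% of all genes were called (0.0806% higher, 0.043% lower and 0.0914% called without overlap). At an unadjusted p under 0.05 there were 3 members, where 16.1% of all genes passed. The one-way test with Tukey's method called 1 member, and it called 781 of 39517 probes in all, where limma called 57. That 1 gene was Bop1, named here after its values were seen, which ran from -0.56 to 0.74 in TSA(-) (median 0.09) and from 0.53 to 1.30 in TSA(+) (median 0.89), with overlap. Its difference of 0.78 (SE 0.21) had the smallest adjusted p in limma, 0.0555. The median difference was 0.19 over members and -0.02 over all genes. Over all probes it was -0.10, against 0.08 after centring on the median and 0.02 after quantile normalization. Over members it was 0.37 after centring on the median and 0.09 with the mean over probes. Within the 3 shared scan days the median over members ran from -0.13 to 0.33. The confidence interval (95%) of a member's difference reached a median of 0.41 to either side, so smaller differences could have been missed with this number of arrays, and a p that misses the threshold does not show that levels were alike. Differences were 0.24 for Fbl (SE 0.15, adjusted p = 0.452, limma), 0.37 for Npm1 (SE 0.18, adjusted p = 0.310) and -0.01 for Ncl (SE 0.14, adjusted p = 0.990).

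For the clones labelled as injected with Spi-C mRNA, the 2 Spic probes were examined first. The brighter one ran from 1.11 to 1.78 in Spi-C 1.0, from 1.53 to 1.66 in Spi-C 0.1 and from 1.59 to 2.47 in TSA(-), with a median of 4.03 in IVF. It was not higher in the injected groups, where the difference from TSA(-) was -0.56 (adjusted p = 0.0268, limma) at 1.0 mg/ml and -0.47 (adjusted p = 0.0679) at 0.1 mg/ml, and the second probe gave -0.50 and -0.44. The injected mRNA was made from a Spic cDNA described as full length, but the positions of these probes are not given in the sources used here, so they do not check the injection. The arrays labelled Spi-C were on slides, a scan day and a scanner model that no TSA(-) array shared and were read with another version of the Feature Extraction software, so injection and these technical differences cannot be told apart in the comparisons with TSA(-).

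Most called members were lower on the arrays labelled Spi-C than in untreated clones. At 1.0 mg/ml 13 of 38 members were called, where 16.3% of all genes were called, and 12 of the 13 fell, where 7.42% of all genes fell and 8.84% rose. Over members the median was -0.31, against 0.08 over all genes, 6 members lay above the median of all genes, and 12 were called without overlap, as in 12.6% of all genes. At an unadjusted p under 0.05 there were 19 members, beside 38.2% of all genes. The count moved to 8 without Spi-C 1.0 replicate 2, to 7 without replicate 3 and to 7 without replicate 4. It was 5 when the 2 groups were fitted alone, where the calls over all 39517 probes also dropped, from 5691 to 3460. The median over all probes was 0.15, against -0.01 after quantile normalization, -0.08 after centring on the median and -0.23 with normexp. The median over members stayed below 0 in each of them, between -0.31 and -0.55, and was -0.17 with replicate number as a block.

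The box C/D scaffold was lower on these arrays. Nop58 read 4.64, 4.52, 4.27 and 4.16 in Spi-C 1.0 and from 5.15 to 5.73 in TSA(-) (median 5.48). All 4 pools were below all 8 untreated pools, and the difference was -1.04 (SE 0.13, adjusted p = 2.43e-06, limma). Nop56 fell by 0.73, also without overlap. Fbl read 4.32, 4.47, 4.44 and 4.50, inside the range of untreated clones, and its difference of -0.26 (SE 0.14, adjusted p = 0.191, limma) was not called.

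In the other particle, Gar1 read 0.57, 0.77, 0.79 and 0.50 in Spi-C 1.0 and from 1.28 to 2.01 in TSA(-) (median 1.71). It was lower in all 4 pools and fell by 1.00 (SE 0.16, adjusted p = 5.50e-05, limma). Rrp12, needed for maturation and export of subunits, read -4.02, -3.56, -3.65 and -4.22 in Spi-C 1.0 and from -3.24 to -2.29 in TSA(-) (median -2.91). The groups were apart and it fell by 1.05 (SE 0.27, adjusted p = 0.00537, limma). That call was lost without TSA(-) replicate 1 or 5 or without Spi-C 1.0 replicate 1, 3 or 4 (adjusted p of up to 0.0306).

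Npm1 read 5.02, 5.18, 4.72 and 5.10 in Spi-C 1.0, below all untreated pools. It fell by 0.70 (SE 0.16, adjusted p = 0.00202, limma), a call lost without Spi-C 1.0 replicate 3 (adjusted p = 0.0155), and a second Npm1 probe was not called (0.30). Ncl read 4.85, 4.85, 4.58 and 4.43, also below all untreated pools, but its difference of -0.45 (SE 0.14, adjusted p = 0.0246, limma) was not called. Emg1, a methyltransferase of the small subunit RNA, read 2.25, 2.09, 2.21 and 2.03 in Spi-C 1.0, above the TSA(-) range of 1.19 to 1.95 (median 1.67). It was the 1 called member that rose, by 0.49 (SE 0.13, adjusted p = 0.00632, limma). After centring on the median the rise was 0.26 and not called, and the call was also lost without any 1 of the 4 Spi-C 1.0 arrays or of TSA(-) replicates 1, 4, 5 and 8 (adjusted p of up to 0.0251).

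Rrs1, a factor of the large subunit named here after its values were seen, had the lowest called difference, -1.27 (SE 0.26, adjusted p = 7.75e-04, limma), but its groups overlapped. The remaining calls were Tsr1 (-0.80), Bms1 (-0.64), Rrp1b (-0.62), Utp20 (-0.58), Gnl2 (-0.56) and Wdr75 (-0.50). Of these, the calls of Utp20 and Bms1 were each lost without any 1 of 9 of the 12 arrays, among them all 4 Spi-C 1.0 arrays (adjusted p of up to 0.0509 and 0.0412). Those of Gnl2 (0.0149), Rrp1b (up to 0.0277) and Wdr75 (up to 0.0168) were lost without Spi-C 1.0 replicate 2, replicates 2 or 4, and replicates 3 or 4. A second probe was not called for Tsr1 (-0.08) or Bms1 (0.06), nor were 2 other probes of Rrp1b, which had differences of 0.16 and 0.63.

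At 0.1 mg/ml, against the same TSA(-) arrays, 9 of 38 members were called and all 9 fell, where 16.2% of all genes were called, 7.41% fell and 8.82% rose. After quantile normalization 1 of 9 called members was higher. The differences had a median of -0.29 over members and 0.09 over all genes, and 7 members were called without overlap, as in 13.1% of all genes. At an unadjusted p under 0.05 there were 20 members, beside 37.2% of all genes. The count was 5 when the 2 groups were fitted alone, where the calls over all 39517 probes also dropped, from 5466 to 3345. The median over all probes was 0.14, against 0.01 after quantile normalization, -0.02 after centring on the median and -0.26 with normexp. Over members it was -0.45 after centring on the median and -0.12 with replicate number as a block.

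Nop58 read 4.37, 4.48, 4.42 and 4.49 in Spi-C 0.1 and fell by 1.00 (SE 0.13, adjusted p = 4.19e-06, limma). Gar1 read 0.74, 0.99, 0.22 and 0.96 and fell by 0.93 (SE 0.16, adjusted p = 1.27e-04, limma). Tsr1 read 3.04, 3.17, 3.08 and 3.13, against 3.43 to 4.10 in TSA(-), and fell by 0.72 (SE 0.15, adjusted p = 7.20e-04, limma). In all 3 genes each pool was below every untreated pool, although a second Tsr1 probe gave 0.01 and was not called.

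Npm1 read 5.12, 4.96, 5.29 and 5.12 in Spi-C 0.1, below all untreated pools. It fell by 0.59 (SE 0.16, adjusted p = 0.00873, limma), and its call was lost without any 1 of the 4 Spi-C 0.1 arrays or of TSA(-) replicates 3, 4, 5, 6, 7 and 8 (adjusted p of up to 0.0360). Its second probe was not called (0.21), and after quantile normalization or normexp the difference of the first, -0.41 or -0.52, was not called either. Ncl read 4.62, 4.79, 4.47 and 4.82, also below the untreated pools, but its difference of -0.45 (SE 0.14, adjusted p = 0.0249, limma) was not called. Fbl read 4.71, 4.40, 4.63 and 4.38, and its difference of -0.17 (SE 0.14, adjusted p = 0.446, limma) was 0.00 after quantile normalization. The remaining calls were Rrs1 (-1.19), Nop56 (-0.69), Bms1 (-0.68), Mphosph10 (-0.54) and Wdr75 (-0.46). Those of Bms1 and Wdr75 were lost without any 1 of 5 and of 8 of the 12 arrays, Spi-C 0.1 replicates 3 and 4 among them for both (adjusted p of up to 0.0357 and 0.0232). A second Bms1 probe was not called (0.24), and of 2 other Mphosph10 probes 1 was called (-0.99) and 1 was not (-0.33).

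Between the concentrations no member was called by limma (0 of 38), nor was any of the other genes tested (0% called). At an unadjusted p under 0.05 there were 3 members, where 3.85% of all genes passed. The one-way test with Tukey's method called 0 members, and it called 55 of 39517 probes in all. The median difference was -0.07 over members and 0.01 over all genes, and within the 2 slides it was -0.14 and -0.03 over members. Over members it was also -0.14 after centring on the median and -0.04 with the mean over probes. The confidence interval (95%) of a member's difference reached a median of 0.38 to either side. Differences were -0.10 for Fbl (SE 0.16), -0.12 for Npm1 (SE 0.18) and 0.00 for Ncl (SE 0.17), each with an adjusted p of 0.999 in limma.

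**Figure D3:**
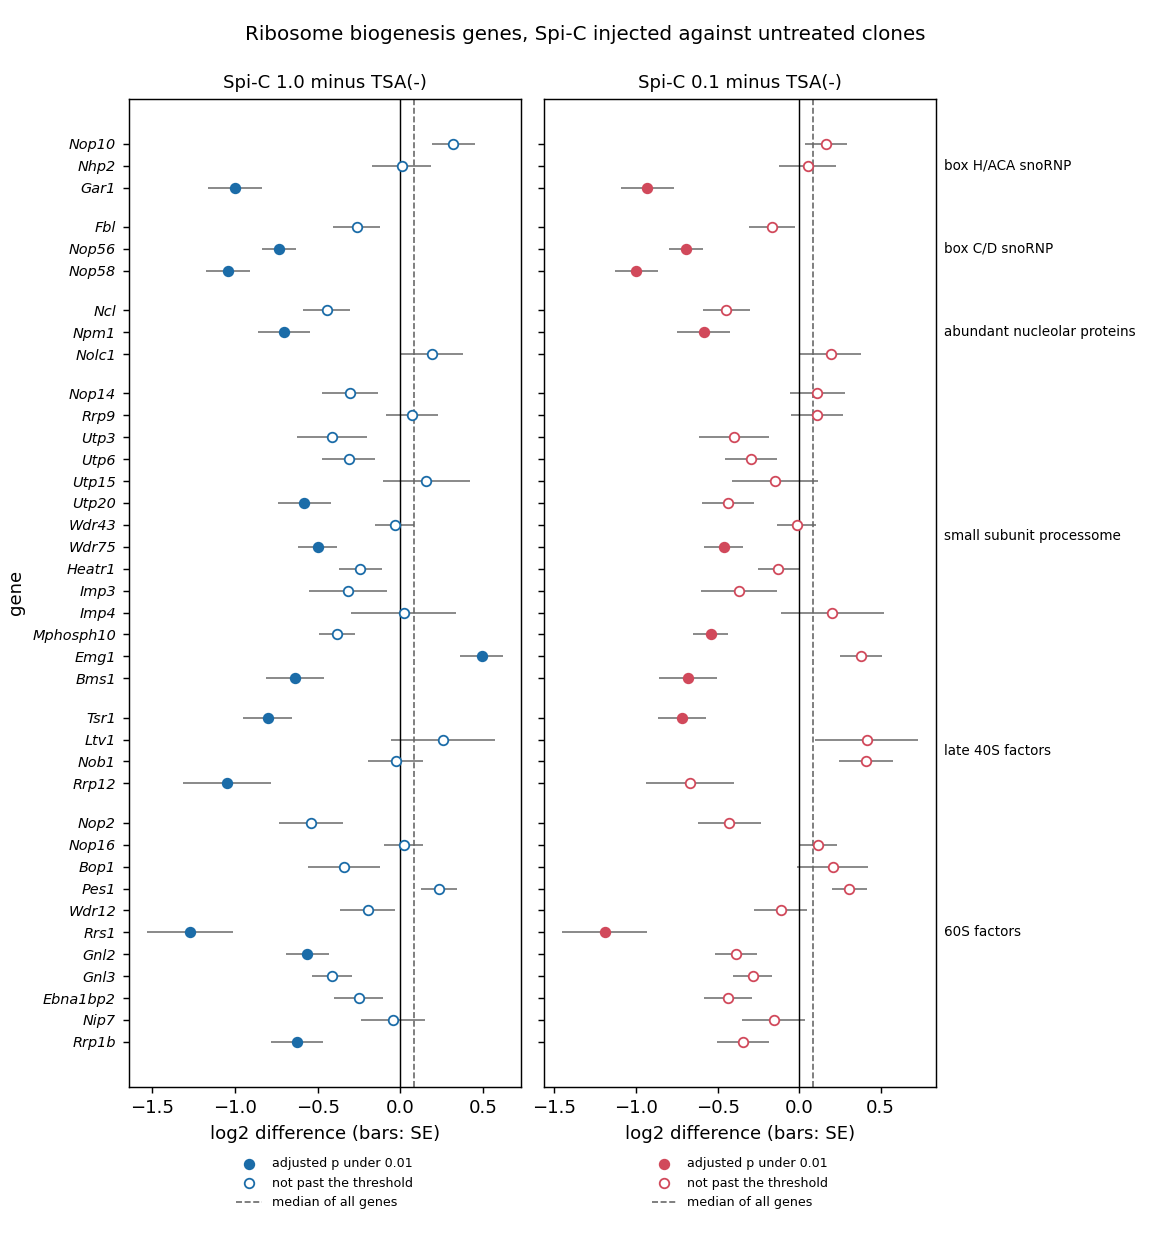
Each point is the log2 difference of 1 gene in Spi-C 1.0 (left) or Spi-C 0.1 (right) minus TSA(-), with its SE as a bar, and genes are grouped by role, filled points passed an adjusted p of 0.01 and the dashed line is the median of all genes. All filled points but that of Emg1 at 1.0 mg/ml lie to the left of 0, and both panels share the 8 TSA(-) arrays, while without Spi-C 1.0 replicate 3 or 4 the left panel has 7 called genes.

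Fertilized embryos were last compared with the nuclear donor cells. In IVF against Cumulus 19 of the 38 members were called, where 64.4% of all genes were called, with 16 higher in IVF (35.1% of all genes) and 3 higher in Cumulus (29.3% of all genes). All 19 were free of overlap, as were the calls of 60.3% of all genes, and 21 members had an unadjusted p under 0.05, beside 73.5% of all genes. This balance depends on scaling, since 6 of 21 called members were higher in IVF after centring on the median. Members had a median difference of 0.30, against 0.18 for all genes. Over members it was -0.59 after centring on the median and 0.48 after quantile normalization. Over all probes it was 0.13, against -0.75 after centring on the median, -0.12 after quantile normalization and -0.19 with normexp. The Cumulus arrays made up 1 slide and 1 scan day of their own, on the same other scanner model and software version as the Spi-C arrays, so cell type and these technical differences cannot be told apart.

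Rrp12 read -6.89, -6.93, -7.70 and -6.27 in Cumulus, where 1 of 4 arrays was well above background, and ran from -4.25 to -3.40 in IVF (median -3.81). It was higher in all embryo pools, by 3.15 (SE 0.40, adjusted p = 4.04e-08, limma). Rrp9, which encodes a protein bound to U3 snoRNA, read 0.13, 0.22, 0.14 and 0.16 in Cumulus and ran from 2.40 to 2.91 in IVF (median 2.60). The groups were well apart, with a difference of 2.47 (SE 0.17, adjusted p = 6.69e-14, limma). Mphosph10 read 2.32, 2.87, 3.24 and 2.39 in Cumulus, below all IVF pools, and was higher in IVF by 2.24 (SE 0.18, adjusted p = 2.31e-12, limma). The other members called higher in IVF ran from Pes1 (0.54) and Heatr1 (0.78), which turned to -0.34 and -0.10 after centring on the median, through Nop56, Tsr1, Utp15, Imp4, Nop58, Rrs1, Nip7, Nop2 and Wdr43 to Gar1 (2.13) and Nolc1 (2.22), while second probes of Wdr43 (-0.34) and Nolc1 (0.58) were not called. Second probes of Pes1 (-4.38) and Nip7 (-2.88) were called lower in IVF, so the direction of these genes depends on the probe.

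Gnl2, a nucleolar GTPase of the large subunit, read 2.95, 3.51, 3.99 and 2.84 in Cumulus and ran from 1.25 to 1.95 in IVF (median 1.79). It was higher in all donor cell pools, with a difference of -1.62 (SE 0.23, adjusted p = 4.06e-07, limma). Emg1 read 2.54, 2.95, 3.09 and 2.37 in Cumulus and ran from 1.15 to 1.41 in IVF (median 1.37). It did not overlap either, with a difference of -1.41 (SE 0.16, adjusted p = 4.77e-09, limma). Wdr12 read 1.78, 1.81, 1.98 and 2.07 in Cumulus, above all IVF pools, with a difference of -1.09 (SE 0.32, adjusted p = 0.00421, limma). That call was lost without IVF replicate 5 or without Cumulus replicate 3 or 4 (adjusted p of up to 0.0139), and 2 other Wdr12 probes were not called (0.51 and 0.72). The calls of Utp15 (1.03) and Imp4 (1.13) were lost without Cumulus replicate 3 (adjusted p = 0.0127) and without Cumulus replicate 4 (adjusted p = 0.0166).

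Fbl read 3.62, 4.18, 4.61 and 3.81 in Cumulus, around the IVF range, and its difference of 0.21 (SE 0.18, adjusted p = 0.330, limma) was not called. Ncl read 5.28, 5.10, 4.77 and 5.07, with a difference of 0.10 (SE 0.17, adjusted p = 0.617, limma). Npm1 read 5.86, 6.03, 6.35 and 6.43, with a difference of -0.22 (SE 0.22, adjusted p = 0.408, limma). All 3 overlapped between the groups, and after centring on the median Fbl, Ncl and Npm1 were called lower in IVF, by differences of -0.67, -0.78 and -1.1. A second Npm1 probe was called lower in IVF, at -0.91.

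Probes of 1 gene did not always give the same answer. The 38 members had 62 probes, 18 members had more than 1, and the 24 probes not used as representative were all tested. In IVF against OC, 5 of these 24 were called in the direction opposite to the called representative (of Nolc1, Utp6, Utp15, Wdr43 and Pes1) and the call differed for 11 more. In TSA(-) against OC, 6 were called in the opposite direction, the same genes and Heatr1, whose other probe fell by 1.10, and the call differed for 9, among them probes of Ebna1bp2 (0.07, not called) and Bms1 (-2.53, called). In TSA(-) against IVF the call differed for 8 of the 24, among them a Utp6 probe called at 1.27, and in TSA(+) against IVF for 8, among them a Bms1 probe called at -1.41, none in the opposite direction. In IVF against Cumulus 2 were opposite, of Pes1 (-4.38) and Nip7 (-2.88), and the call differed for 8, with probes of Bms1 (4.45), Utp6 (1.2), Rrp1b (-1.57) and Npm1 called where the representative was not. In the comparisons of Spi-C with TSA(-) it differed for 8 at 1.0 mg/ml and for 6 at 0.1 mg/ml, where for members not called by their representative 1 other Ncl probe fell by 1.02 and 1.21, 1 other Utp15 probe by 1.07 and 1.05, and at 1.0 mg/ml 1 other Mphosph10 probe by 1.05. The sequences targeted by the probes were not used here.

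Other genes of the pathway were read from lists of further factors, of which 101 were measured and 4 were not matched by name (Polr1f, Polr1g, Polr1h and Nol8). Each was read from its representative probe alone, and other probes of these genes were not examined. No rule set beforehand chose which of them are named. In IVF against OC, 57 of the 101 rose and 32 fell, where 27.4% of all genes rose and 44.4% fell. RNA polymerase I subunits and its initiation factors had 10 of 13 that rose and 2 that fell. Polr1b, a large catalytic subunit, rose by 3.40 (SE 0.20) and Polr1c by 2.80 (SE 0.18), while Taf1a, part of the promoter selectivity factor, fell by 2.34 (SE 0.13). Other large subunit factors had 26 of 37 that rose and 7 that fell, with Rpf2 at 4.85 and Sbds at -4.40. Other small subunit factors were divided, with 11 of 30 that rose and 12 that fell, such as Bysl at 3.55 and Riok1 at -3.29. Other snoRNP factors had 5 of 9 that rose and 4 that fell, among them Dkc1, the pseudouridine synthase of the box H/ACA particles, at -1.91 (SE 0.36). The RNA exosome, which trims and degrades RNA, had 5 of 12 that rose and 7 that fell, among them Exosc7 at -4.01 (SE 0.16).

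In TSA(-) against OC the same lists gave 58 that rose and 29 that fell of 101, where 26.8% of all genes rose and 49.4% fell. In TSA(-) against IVF 11 of 101 rose and 5 fell, where 10.2% of all genes rose and 13.4% fell, so a smaller share was called than of all genes (23.6%). In TSA(+) against IVF 16 of 101 rose and 3 fell, where 10.5% of all genes rose and 13.8% fell, again a smaller share in all than of all genes (24.2%). Nol6, a small subunit factor, rose by 1.75 in TSA(-) and by 2.13 in TSA(+), and Nle1, a large subunit factor, by 1.39 and 1.90. Polr1d, a subunit shared by RNA polymerases I and III, fell by 1.1 in TSA(-) (SE 0.16, adjusted p = 3.72e-06, limma) and by 0.84 in TSA(+) (SE 0.17, adjusted p = 3.21e-04, limma). In TSA(+) against TSA(-), 0 of 101 were called in limma, where 0.124% of all genes were called.

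On the arrays labelled Spi-C 1.0, 2 of 101 rose and 21 fell against TSA(-), where 8.84% of all genes rose and 7.42% fell. At 0.1 mg/ml 3 rose and 13 fell, where 8.82% of all genes rose and 7.41% fell. Of the 13 measured RNA polymerase I genes, 5 fell at 1.0 mg/ml and 3 at 0.1 mg/ml. Taf1d fell by 1.11 and 1.02, Polr1d by 0.73 and 0.78, and Rrn3, which recruits the polymerase to its promoter, by 0.54 and 0.47. Utp14a fell by 1.13 and 1.27 and Utp18 by 0.95 and 1.02, while Nol9 rose by 0.71 and 1.11. In Spi-C 1.0 against Spi-C 0.1, 0 were called in limma, as were 0 of all genes. In IVF against Cumulus 39 of 101 were higher and 15 lower in IVF, where 35.1% of all genes were higher and 29.3% lower.

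Promoter sequences are shown because many members rose together between oocytes and embryos, and because Spi-C belongs to a family that binds ETS motifs. Of the 38 members, 31 matched an entry in the RefSeq promoter table (build GRCm38.p6), with 34 promoters, and Fbl, Npm1, Utp6, Rrp12, Bop1, Rrs1 and Gnl2 did not. The 250 bases before each start were searched on both strands for CACGTG, an E-box that reads the same on both strands, and for CCGGAAG, an ETS type motif read as CTTCCGG on the other strand. CACGTG was found in 2 of 34 member promoters (5.88%) and in 6.02% of 32851 promoters in all. CCGGAAG was found in 11 of 34 member promoters (32.4%) and in 6.91% of all promoters. The 11 genes include Gar1, Mphosph10, Nip7 and Bms1, which fell between OC and IVF, as well as genes that rose. These are counts of letters and do not show binding. The promoters below belong to the 4 members that hold a motif and rose most in IVF against OC, each written 5′ to 3′ on the strand of the gene, with the motifs in capitals and credit to RefSeq. They lie at chr6:125131633-125131882 on the + strand for Nop2, at chr11:51619523-51619772 on the + strand for Nhp2, at chr10:13193138-13193387 on the - strand for Ltv1 and at chr13:12395125-12395374 on the + strand for Heatr1. Nop2 holds both motifs, the first at position -60 from the start, and Ltv1 holds the ETS type motif on both strands.
Nop2: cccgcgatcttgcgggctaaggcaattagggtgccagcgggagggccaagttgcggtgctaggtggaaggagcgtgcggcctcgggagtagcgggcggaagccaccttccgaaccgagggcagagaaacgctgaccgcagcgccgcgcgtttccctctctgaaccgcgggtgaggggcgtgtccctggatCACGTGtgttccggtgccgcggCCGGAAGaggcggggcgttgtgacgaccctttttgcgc
Nhp2: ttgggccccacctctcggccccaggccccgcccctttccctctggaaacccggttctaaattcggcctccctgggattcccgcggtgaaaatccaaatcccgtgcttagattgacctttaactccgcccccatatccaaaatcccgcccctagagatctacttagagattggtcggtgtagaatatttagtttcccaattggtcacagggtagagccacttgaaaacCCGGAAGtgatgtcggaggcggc
Ltv1: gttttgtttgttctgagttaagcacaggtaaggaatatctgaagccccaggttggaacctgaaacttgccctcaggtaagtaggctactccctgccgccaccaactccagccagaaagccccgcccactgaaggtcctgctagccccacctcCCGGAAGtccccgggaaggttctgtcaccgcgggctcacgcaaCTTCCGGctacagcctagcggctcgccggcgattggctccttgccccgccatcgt
Heatr1: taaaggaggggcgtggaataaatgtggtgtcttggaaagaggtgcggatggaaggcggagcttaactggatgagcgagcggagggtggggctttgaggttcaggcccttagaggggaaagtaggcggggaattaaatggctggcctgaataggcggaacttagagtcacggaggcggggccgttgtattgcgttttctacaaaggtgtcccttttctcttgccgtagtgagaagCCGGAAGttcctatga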

How the data were processed

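The deposited scanner files hold 1 processed intensity for each spot, which the authors made with Feature Extraction by subtracting background, removing spatial trends and replacing low values. The deposited table holds log2 values of the authors, found here to be that intensity relative to the 75th percentile of the array and the median of the probe, with column medians from -0.30 to 1.08. The 5238 spots with an outlier mark were not used, and a probe with several spots was given their mean. Log2 intensities minus the 75th percentile of the array were fitted with limma 3.58.1 in R 4.3.3, by group and without covariates, for probes with an intensity of at least 10 on at least 1 IVF or cloned embryo array, and p was adjusted by Benjamini-Hochberg over 39517 probes, with a threshold of 0.01. Fits of OC, IVF, TSA(-), TSA(+) and Cumulus, and of IVF, TSA(-), TSA(+) and both Spi-C groups, each shared 1 estimate of spread. Where a gene had several probes, the one with the highest mean level over 39 arrays was used. Values by array are given for Fbl, Ncl and Npm1, and in each comparison for up to 3 members with the highest and 3 with the lowest differences among called members whose groups do not overlap. Alternatives were quantile normalization, centring on the median, normexp (offset 50), the authors' values, other filters, thresholds and tests, slide, scan day and replicate number as terms, the mean over probes, both Spi-C groups as 1, and leaving out each array. Slide as a fixed term between the Spi-C groups was chosen after seeing the data. The members and lists were chosen with earlier results of these data known. The number of arrays limits the precision. Figures were drawn with matplotlib 3.10.9.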

Additional observations from a re-analysis of the deposited data

Results flagged for a closer look

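Utp20 in OC replicate 2 was at 3.98 (log2 level), while the nearest of the other 6 oocyte arrays was at 5.44 and the highest at 5.68. The gap made up 0.859 of the range of the group, more than the 95% critical value of Dixon's test for 7 arrays. It was the 1 array that stood apart in this way among 77 groups of arrays tested, and chance flags about 1 in 20 groups. The array was on slide 8, and a part of the slide in this value was not tested.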

How the results depend on the processing

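The counts of called members were 34 in IVF against OC, 33 in TSA(-) against OC, 10 in TSA(-) and 13 in TSA(+) against IVF, 0 in TSA(+) against TSA(-), 19 in IVF against Cumulus, 13 in Spi-C 1.0 and 9 in Spi-C 0.1 against TSA(-) and 0 between the concentrations, and they stayed within 1.5 times under the alternatives tried except where given here; causes were not tested. In TSA(-) against IVF the count was 16 with quantile normalization, 17 with normexp, 16 with the 2 groups alone, 19 at an adjusted p under 0.05 and 4 with a change of at least 2-fold, and in TSA(+) against IVF 6 with a change of at least 2-fold. Over all 39517 probes, calls in TSA(-) against IVF were 7404 in the main fit. In the same order of settings they were 7938, 10321, 8281, 10976 and 5364. In TSA(+) against IVF they were 7428 in the main fit and 5616 with a change of at least 2-fold. In TSA(+) against TSA(-) it was 1 by the one-way test with Tukey's method, which called 781 of 39517 probes in all. In Spi-C 1.0 against TSA(-) it was 5 with the 2 groups alone, 3 with a change of at least 2-fold, 7 with replicate number as a block, and from 7 to 14 leaving out 1 array. Over all 39517 probes the calls were 5691 in the main fit and 3460 with the 2 groups alone. They were 2932 with a change of at least 2-fold and 3494 with replicate number as a block. In Spi-C 0.1 against TSA(-) it was 5 with the 2 groups alone, 14 at an adjusted p under 0.05, 1 with a change of at least 2-fold, 3 with replicate number as a block and 16 with both concentrations as 1 group. Over all 39517 probes the calls were 5466 in the main fit. In the same order of settings they were 3345, 9102, 2703, 3502 and 8372. Replicate numbers do not pair arrays (median correlation of residuals of -0.0009 over 97 pairs with the same number). Of 1629 values of 62 named differences under alternatives, 1504 kept their direction and side of the threshold, 74 lost a call, 22 gained one and 29 changed direction. Averaged over probes, Utp15 in IVF against OC was 0.40, Wdr12 in IVF against Cumulus 0.0471, and Ncl 0.37 in TSA(-) and 0.36 in TSA(+) against IVF. Centred on the median, Ncl was -0.32 in IVF and -0.34 in TSA(-) against OC, 0.15 in TSA(+) against IVF, 0.17 in TSA(+) against TSA(-), -0.78 in IVF against Cumulus and -0.0710 between the concentrations, and Fbl was -0.67 in IVF against Cumulus. With quantile normalization Ncl was 0.12 in TSA(-) and 0.11 in TSA(+) against IVF and -0.0225 between the concentrations, and Fbl was 0.0028 in Spi-C 0.1 against TSA(-). In TSA(+) against TSA(-) Ncl was 0.0247 with normexp and 0.0064 with replicate number as a block, and between the concentrations -0.0027 with the authors' values. Leaving out 1 array, Ncl ran from -0.11 to 0.0337 in TSA(+) against IVF, from -0.0784 to 0.0702 in TSA(+) against TSA(-) and from -0.0683 to 0.0849 between the concentrations. A scan day term could not be fitted for IVF against Cumulus or Spi-C against TSA(-), which share no day, and adds nothing between the concentrations, scanned on 1 day; there, slide as a fixed term, chosen after seeing the data, gave 0. Signal over background limits values of Nop2, Nop16, Ltv1, Rrp12, Wdr12, Nop14, Nhp2 and Utp6 in OC and of Rrp12 in Cumulus.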
